A study of Mus musculus with 12 samples.

Results

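The small RNAs of TM4 cells that overexpressed angiogenin (Ang OE) were compared directly with those of TM4 cells treated with Compound C (CC). The comparison holds 4 libraries, 2 per group, of the 12 libraries in the series, and they were chosen by their treatment labels. TM4 is a mouse Sertoli cell line. Ang OE cells expressed the full-length Ang coding sequence, amplified from C57BL/6N tail DNA, from a plasmid, and no library of cells with an empty plasmid was analysed here. CC cells received Compound C, an inhibitor of the kinase AMPK, at 10 µM for 12 h. Untreated TM4 cells (Ctrl, 2 libraries) entered no main test, only some alternative fits, and their values are given as background. The expression plasmid and the compound each occur in only 1 group, so the effects of angiogenin, of carrying a plasmid and of Compound C on this contrast cannot be told apart.

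Angiogenin is a ribonuclease of the RNase A family that cuts tRNAs in the anticodon loop, mainly under stress, and leaves a fragment from each side of the cut. AMPK is the kinase that senses a low cellular energy state. A tRNA-derived fragment (tRF) is called tRF5 where it carries the 5′ end of the mature tRNA, tRF3 where it carries the 3′ end, with or without the CCA that is added after transcription, and other where it carries neither end. Sertoli cells nurse the developing germ cells of the testis.

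The libraries held between 51457711 and 58223045 clean reads, and between 47610967 and 54527661 after rRNA was left out. Levels are given as RPM, reads scaled to 1000000 of these rRNA-free reads. Ang mRNA and the mRNA markers of Sertoli cells are not counted in small RNA tables, so neither the overexpression nor the cell type could be checked. CC replicate 2 stood apart from the other libraries in its tRNA fragments, with a tRF5 share of tRNA reads of 7.15%. The labels do not say whether replicates were separate cultures, and p-values measure only the spread between these libraries.

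Several tRNAs on which the comparison turns are shown first. They were found in GRCm39 by a search for the tRNA fold, so their coordinates are not those of the build used for the files. Each line is a gene copy of the isoacceptor, as DNA, and no other sequence found for it had more copies. It is shown with the anticodon in capitals. Gly-GCC, Gly-CCC, Val-CAC, Val-AAC, Lys-CTT and His-GTG gave tRF5s that were abundant or higher in Ang OE, and Asp-GTC, Ala-AGC and Phe-GAA gave tRF3s that were lower.
Gly-GCC: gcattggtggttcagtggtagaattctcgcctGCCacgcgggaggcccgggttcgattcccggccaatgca
Gly-CCC: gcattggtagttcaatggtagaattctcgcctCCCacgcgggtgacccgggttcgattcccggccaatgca
Val-CAC: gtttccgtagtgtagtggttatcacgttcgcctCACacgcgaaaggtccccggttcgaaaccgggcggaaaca
Val-AAC: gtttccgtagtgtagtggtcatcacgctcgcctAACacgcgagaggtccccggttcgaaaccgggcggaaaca
Lys-CTT: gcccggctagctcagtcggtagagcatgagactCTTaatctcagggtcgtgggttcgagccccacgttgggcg
His-GTG: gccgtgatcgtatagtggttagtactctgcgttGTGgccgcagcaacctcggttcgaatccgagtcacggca
Asp-GTC: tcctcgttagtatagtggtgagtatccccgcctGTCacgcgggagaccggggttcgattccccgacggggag
Ala-AGC: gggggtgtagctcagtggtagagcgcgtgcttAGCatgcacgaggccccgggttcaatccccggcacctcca
Phe-GAA: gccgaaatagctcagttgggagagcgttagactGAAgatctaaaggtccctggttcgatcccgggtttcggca

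The search missed genes, so copy numbers are those found. It found 11 Gly-GCC genes beside 14 in RefSeq, 8 beside 11 for Val-CAC, 10 beside 24 for Lys-CTT and 4 beside 13 for Ala-AGC. For His-GTG and Phe-GAA the numbers were equal, at 10 and 7. The Gly-GCC copy shown lies at chr1:170872554-170872624 on the plus strand, between annotated genes, and is 1 of 8 identical copies found. The Val-CAC copy is at chr1:170939012-170939084, plus strand, also intergenic, and is 1 of 5 identical copies found. Val-AAC is at chr13:23469571-23469643 on the plus strand in an intron of the lncRNA gene 4930557F10Rik, which runs on the opposite strand. Gly-CCC is at chr3:96258483-96258553 on the minus strand in introns of the lncRNA genes Gm26553 and Platr30. Lys-CTT is at chr11:48724710-48724782, minus strand, within an intron of Trim7 and of the lncRNA genes Gm74096 and Gm74101. His-GTG is at chr2:122205975-122206046, minus strand, in an intron of Gm39918, and Ala-AGC at chr13:21406756-21406827, plus strand, in an intron of Gm32525, both lncRNA genes. Asp-GTC at chr1:170864598-170864669 and Phe-GAA at chr10:80084798-80084870, both on the minus strand, are intergenic.

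Reads could not always be placed on 1 isoacceptor. The Val-CAC and Val-AAC copies shown are identical over the first 19 bases and the last 30, and differ at 2 of the first 30. The Gly-GCC and Gly-CCC copies shown are identical over the first 8 bases and the last 26, and also differ at 2 of the first 30. Other gene copies were not compared. In the CC and Ang OE libraries, reads of tRF5 Gly-CCC kept a near-constant proportion to those of tRF5 Gly-GCC. With 1 mismatch allowed in the mapping, levels of such isoacceptors are uncertain relative to each other. Some tRF3s kept near-constant proportions across the libraries, as reads divided between entries would. These were Val-AAC with Val-CAC, Leu-TAG with Leu-AAG, and the proline tRNAs. Such fragments are not independent of each other, but the counts of tRFs below hold each of them separately. The tables give no read lengths, so where within the tRNA a fragment ended is unknown.

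tRNA reads took a larger share of the annotated reads in Ang OE than in CC, and the increase lay in fragments from the 5′ end. Reads of mature and precursor tRNAs made up 2.74% and 2.72% of annotated reads in CC, and 3.72% and 5.04% in Ang OE. Both Ang OE libraries were above both CC libraries, and the Ctrl libraries had 2.88% and 2.32%. Summed over mature cytosolic tRNAs, tRF5s came to 6087 and 1911 RPM in CC and to 23102 and 31203 RPM in Ang OE, a ratio of means of 6.79 that was 4.46 without CC replicate 2 and 14.2 without CC replicate 1. tRF3s came to 9753 and 12606 RPM in CC and to 3232 and 4999 RPM in Ang OE, so that the mean level in CC was 2.72 times that in Ang OE. Fragments with neither end were at 11787 ± 597 RPM in CC and 11903 ± 2071 RPM in Ang OE (SD, n = 2), and their libraries overlapped.

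As shares of tRNA reads, tRF5s made up 22.4% and 7.15% in CC and 62.8% and 62.9% in Ang OE. The corresponding tRF3 shares were 35.9% and 47.2% in CC against 8.79% and 10.1% in Ang OE, and the share of other fragments was 41.8% and 45.7% against 28.4% and 27%. In Ctrl, tRF5s held 39.4% and 26.4%, which lay between the other groups, and tRF3s held 23.9% and 36%. The tRF5 share was thus nearly equal in the Ang OE libraries and differed between the CC libraries by more than it differed between the Ctrl libraries. Of the tRF3 reads, between 99.5% and 99.8% in the 4 libraries ended in CCA. For the shares of tRF5s, tRF3s and other fragments the groups did not overlap, with p = 0.33 in a two-sided exact permutation test, the smallest p that 2 against 2 libraries allow, and 0.33 after Benjamini-Hochberg adjustment over 7 shares tested. Counting error was small, with 95% Wilson intervals of at most 0.0867 percentage points on either side of a tRF class share, and covers neither PCR nor culture.

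**Figure D1:**
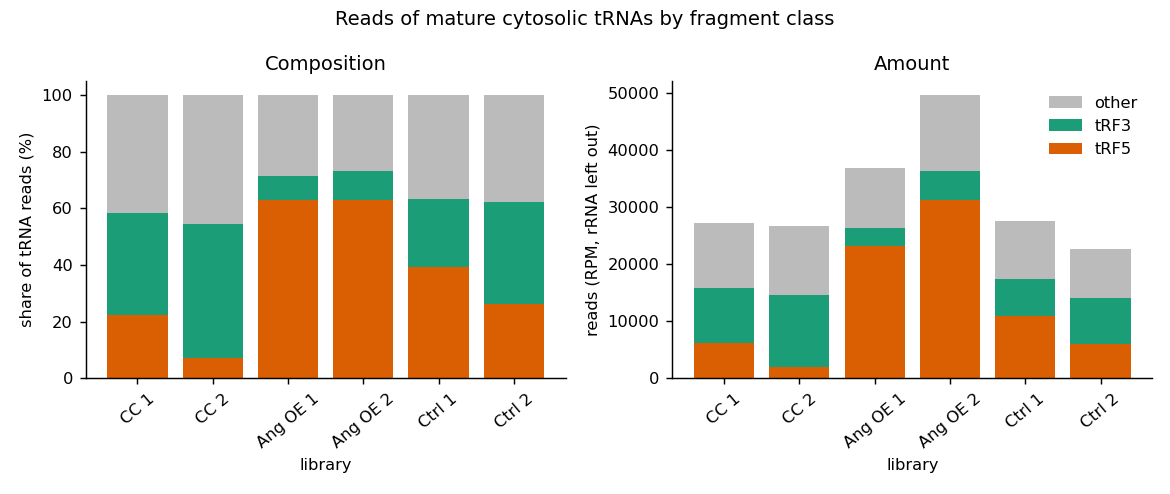
Reads of mature cytosolic tRNAs in each of the 6 TM4 libraries, stacked by fragment class (tRF5, tRF3, other), as a share of tRNA reads in percent on the left and in RPM on the right. The tRF5 part is 62.8% and 62.9% in the Ang OE libraries and 22.4% and 7.15% in the CC libraries, while the amount of other fragments is about the same in both groups.

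Of 151 tRFs with a read, 142 had enough reads to be tested, at least 10 in at least 2 libraries. Of these 142 (edgeR's quasi-likelihood test, Benjamini-Hochberg adjusted p under 0.05 and a fold over 2), 55, or 38.7%, passed. Of these, 17 were higher in Ang OE, or 12%, and 38 were lower, or 26.8%. The direction followed the fragment class. Of 43 tRF5s, 17 rose (39.5%), 3 fell (6.98%) and 23 did not pass. Of 49 tRF3s, 28 fell (57.1%), none rose and 21 did not pass. Of 50 other fragments, 7 fell (14%) and 43 did not pass. The median log2 fold change was 1.04 for tRF5s, -1.28 for tRF3s and -0.25 for other fragments, beside -0.38 over all tRFs. With library sizes by TMM over the tRFs, which moved the median of all tRFs from -0.38 to 0.05, 22 tRFs were higher and 20 lower. 18 tRF5s then rose and 1 fell, 17 tRF3s fell and none rose, but the direction of other fragments turned, with 4 higher and 2 lower.

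These counts leaned on single libraries. Without CC replicate 2, 10 tRFs passed, 2 higher and 8 lower. Without Ang OE replicate 1 there were 14 higher and 9 lower, and without Ang OE replicate 2 there were 11 higher and 20 lower. In every case the calls higher were tRF5s and none of the tRF3s was called higher.

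**Figure D2:**
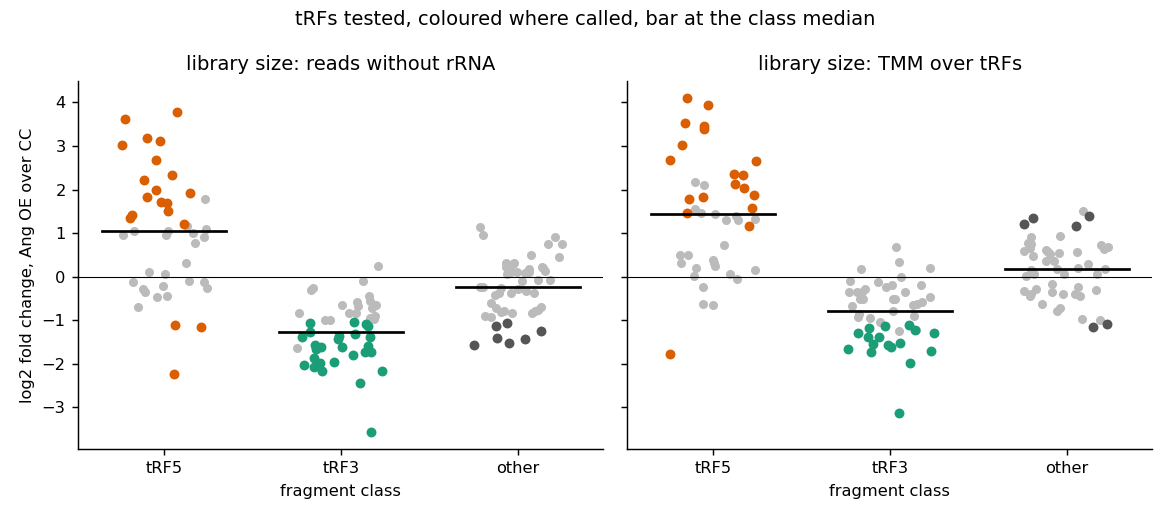
Log2 fold change of each tRF, Ang OE over CC, by fragment class, with library sizes from rRNA-free reads on the left and from TMM over the tRFs on the right. Coloured or dark points passed an adjusted p under 0.05 and a fold over 2, grey points did not, and bars mark class medians, 1.04 for tRF5s and -1.28 for tRF3s on the left.

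The largest rises were tRF5s of valine and glycine tRNAs, which are known as frequent sources of 5′ fragments in stressed cells and in sperm. tRF5 Val-CAC was at 634 and 181 RPM in CC and at 4165 and 7088 RPM in Ang OE, with a log2 fold change of 3.79 ± 0.92 (SE) and an adjusted p of 0.0048. tRF5 Val-AAC was at 338 and 116 RPM in CC and at 2153 and 3425 RPM in Ang OE, with a log2 fold change of 3.62 ± 0.77 and an adjusted p of 0.0024. The lower Ang OE library exceeded the higher CC library several times over for both. Ctrl lay between, at 2303 and 996 RPM for tRF5 Val-CAC and at 1577 and 693 RPM for tRF5 Val-AAC.

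tRF5 Gly-GCC had the most reads of any tRF in both Ang OE libraries, and in neither CC library. It was at 1940 and 543 RPM in CC and at 10001 and 11655 RPM in Ang OE, with a log2 fold change of 3.12 ± 1.02 and an adjusted p of 0.021. tRF5 Gly-CCC was at 378 and 111 RPM against 2045 and 2393 RPM, a log2 fold change of 3.18 ± 0.74 (adjusted p = 0.0037). The Ctrl libraries, with 2963 and 1906 RPM of tRF5 Gly-GCC, overlapped CC and lay below Ang OE. Without CC replicate 2 none of these 4 tRF5s passed. Their log2 fold changes were then 3.15 for tRF5 Val-CAC (edgeR adjusted p = 0.084), 3.04 for tRF5 Val-AAC (0.079), 2.48 for tRF5 Gly-GCC (0.10) and 2.55 for tRF5 Gly-CCC (0.079).

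Less abundant tRF5s rose as well. tRF5 His-GTG was at 155 and 66.5 RPM in CC and 348 and 532 RPM in Ang OE, a log2 fold change of 1.99 ± 0.50. tRF5 iMet-CAT, from the initiator tRNA, was at 8.14 and 4.35 RPM against 22.9 and 39.7 RPM, a log2 fold change of 2.33 ± 0.38. tRF5 Arg-TCT was at 5.94 and 2.58 RPM against 17.1 and 37.7 RPM, a log2 fold change of 2.68 ± 0.44. In each of them Ang OE replicate 2 was the highest library and CC replicate 2 the lowest of the 4. tRF5 Gln-CTG rose by a log2 fold change of 3.01, from 1.04 and 0.672 RPM to 4.2 and 9.7 RPM, a low level on which few reads weigh heavily. tRF5 Tyr-GTA and tRF5 Gly-ACC completed the 10 largest rises among tRFs with a mean of at least 100 reads, with log2 fold changes of 1.71 and 1.92 and levels of at most 20 RPM. tRF5 Phe-GAA, called at 2.23, and tRF5 Arg-CCG, called at 1.83, were under that mean and are named after their values were seen. All 10 were tRF5s, and without CC replicate 2 tRF5 Gly-ACC was the 1 of them that passed.

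**Figure D3:**
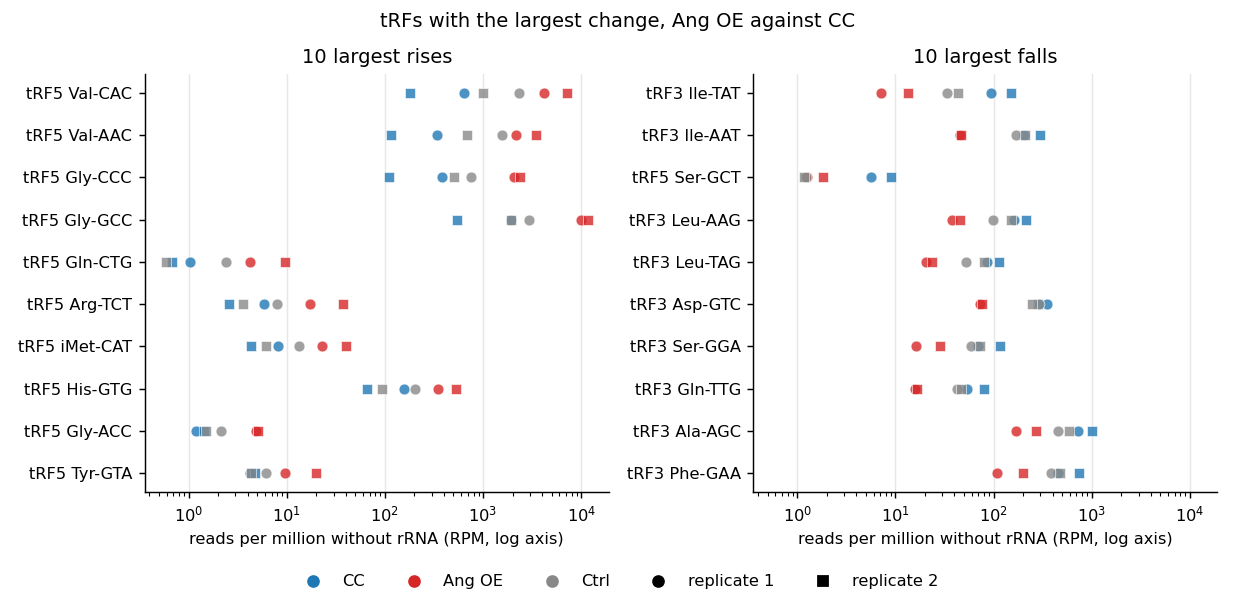
RPM (log axis) of the 10 called tRFs with the largest rise and the 10 with the largest fall among those with a mean of at least 100 reads, by library, circles for replicate 1 and squares for replicate 2, Ctrl in grey. Red Ang OE points lie right of the blue CC points in all 10 rises, from tRF5 Val-CAC at a log2 fold change of 3.79 to tRF5 Tyr-GTA at 1.71, and left of them in all 10 falls.

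tRF5 Lys-CTT, the third most abundant tRF in both Ang OE libraries, did not pass. It was at 2146 and 481 RPM in CC and 3790 and 5253 RPM in Ang OE, with a log2 fold change of 1.78 ± 0.86 and an adjusted p of 0.097. Its groups did not overlap, but the CC libraries differed from each other by more than CC replicate 1 differed from Ang OE replicate 1. Among the other tRFs with the most reads over the 4 libraries together, the fragments of Arg-CCT, Lys-TTT and Lys-CTT with neither end had log2 fold changes of 0.11, 0.08 and 0.32, all with overlapping libraries. Other Arg-CCT was at 1541 and 3017 RPM in CC and 2111 and 2815 RPM in Ang OE.

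Of the 10 largest falls, 9 were tRF3s, led by those of isoleucine tRNAs. tRF3 Ile-TAT fell from 93.2 and 152 RPM in CC to 7.08 and 13.5 RPM in Ang OE, a log2 fold change of -3.57 ± 0.41 (adjusted p = 5.4e-05). tRF3 Ile-AAT fell from 204 and 296 RPM to 45.4 and 46.6 RPM, a log2 fold change of -2.44 ± 0.38. tRF3 Leu-AAG fell from 161 and 215 RPM to 38.1 and 45.3 RPM, a log2 fold change of -2.17 ± 0.36. In all 3, Ctrl stood above both Ang OE libraries, and for tRF3 Ile-TAT it stood below both CC libraries, at 33.7 and 43.4 RPM.

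tRF3 Leu-TAG, tRF3 Asp-GTC, tRF3 Ser-GGA, tRF3 Gln-TTG, tRF3 Ala-AGC and tRF3 Phe-GAA followed, with log2 fold changes from -2.16 to -1.97. tRF3 Leu-TAG had 4388 and 5382 reads in CC and 1005 and 1303 in Ang OE. That is a near-constant proportion to tRF3 Leu-AAG, at 8345 and 10223 against 1888 and 2469, so these falls are not independent. tRF3 Ala-AGC was the most abundant of those that followed, at 723 and 1012 RPM in CC and 168 and 268 RPM in Ang OE. tRF3 Asp-GTC, at 350 and 284 RPM in CC and 73 and 76.5 RPM in Ang OE, turned to a log2 fold change of 0.18 with genome-matched reads alone and to 0.24 where CCA ends were set apart. The fall lay in its CCA-tailed reads, which the genome does not encode at the tail. The third largest fall was that of a tRF5, tRF5 Ser-GCT, at 5.63 and 9.01 RPM in CC and 1.25 and 1.85 RPM in Ang OE, a log2 fold change of -2.23 ± 0.39. Without CC replicate 2, tRF5 Ser-GCT, tRF3 Ser-GGA, tRF3 Ala-AGC and tRF3 Phe-GAA did not pass, and the last 2 did not pass without either Ang OE library. tRF3 Asp-GTC did not pass without Ang OE replicate 1.

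Within single tRNAs, tRF5s took a larger share of the reads in Ang OE. For 50 isoacceptors with at least 100 reads in each of the 4 libraries, the tRF5 share of the isoacceptor's reads was higher in both Ang OE libraries than in both CC libraries for 36, or 72%, lower for 2, or 4%, and overlapped for 12. This is a count without a test. 1 of the 36, Cys-GCA, had 0 tRF5 reads in CC, which allows up to 0.0306% and 0.0242%, beside 0.0184% and 0.0399% in Ang OE, so a difference was not detectable at this depth. The median difference of the group means was 1.36 percentage points. The mean share passed 10% in 19 isoacceptors in Ang OE and in 11 in CC.

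The widest shifts were those of glycine and valine tRNAs and of Lys-CTT. Of Gly-GCC reads, 64.1% and 31.2% were tRF5 in CC and 95.8% and 94.4% in Ang OE. Of Val-CAC reads, 65.1% and 28.7% were tRF5 in CC and 94.5% and 96.2% in Ang OE. Gly-CCC rose from 39.1% and 14.6% to 85.2% and 81.5%, and Lys-CTT from 57.3% and 27% to 71.2% and 72.5%. In all 4, CC replicate 2 had the lowest share and the Ang OE libraries lay within a few points of each other. Ctrl shares of Val-CAC, 90.2% and 79.5%, were nearer to Ang OE than to CC. Leu-CAG went from 26.9% and 19.2% to 48% and 37.1%, while its tRF5s did not pass, at a log2 fold change of -0.36, and its tRF3s fell by 1.81 on the log2 scale. Ser-GCT went the other way, from 2.95% and 3.4% to 1.25% and 1.72%. The other isoacceptor with a lower share was Thr-CGT, at 0.0547% and 0.0378% in CC and at 0 reads in Ang OE. A count of 0 allows a share of up to 0.073% and 0.0444% there, so a difference was not detectable at this depth.

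**Figure D4:**
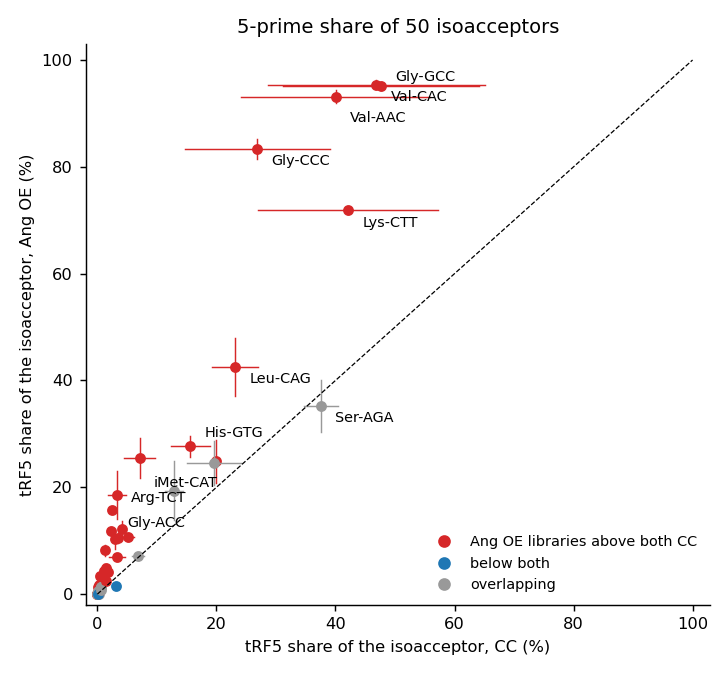
tRF5 share of each of 50 isoacceptors, mean of the CC libraries on the horizontal axis and mean of the Ang OE libraries on the vertical axis, in percent, with lines spanning the 2 libraries of each group. The 36 red points are isoacceptors whose Ang OE libraries are both above both CC libraries, and Gly-GCC, Val-CAC, Val-AAC and Gly-CCC lie farthest above the dashed line of equal shares.

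Lists of tRNAs were then counted. Of 11 isoacceptors known as sources of 5′ fragments, 9 tRF5s rose and 2 did not pass, with a median log2 fold change of 1.99. Over all tRF5s 39.5% rose, with a median of 1.04. Those that did not pass were tRF5 Lys-CTT and tRF5 Glu-TTC, at 81.8 and 73.8 RPM in CC and 51.7 and 115 RPM in Ang OE. Their tRF3s gave 6 falls among 11, a share near the 57.1% of all tRF3s, and none of their 11 other fragments passed. With 1 library left out, the tRF5s that rose numbered 0 without CC replicate 2, 5 without Ang OE replicate 2, 7 without Ang OE replicate 1 and 10 without CC replicate 1, and the tRF3s that fell 1, 1, 0 and 6. The DNMT2 substrates Asp-GTC, Gly-GCC and Val-AAC, whose methylation is known to protect against cutting, had 3 of 3 tRF5s higher and 2 of 3 tRF3s lower, the latter again near the share of all tRF3s. These counts were 0 and 1 without CC replicate 2, and without Ang OE replicate 1 they were 2 and 0. tRF5 Asp-GTC itself was low, at 10.8 and 5.5 RPM in CC and 19.1 and 27.1 RPM in Ang OE.

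Ala and Cys tRNAs gave almost no tRF5, with a sum between 9.59 and 10.6 RPM in the 4 libraries. Their 4 tRF3s all fell and 3 of their 4 other fragments fell, beside 57.1% and 14% over all tRFs of these classes. Without CC replicate 2 or Ang OE replicate 1 none of them passed, and without Ang OE replicate 2, 1 tRF3 and 3 other fragments fell. Leu and Ser tRNAs have a long variable arm, and the tRF3s of Leu-TAG and Leu-AAG are not independent of each other. Beside 6.98% of all tRF5s that fell and 39.5% that rose, 3 of 9 tRF5s of Leu and Ser tRNAs fell and none rose. Of the tRF3s of Leu and Ser tRNAs, 8 of 10 fell. Of these, 2 tRF3s and none of the tRF5s fell without CC replicate 2, and without Ang OE replicate 1, 3 tRF3s and 1 tRF5 fell. For the 10 tRNAs that the study names for TM4 cells, a list chosen on these libraries and no independent evidence of direction, 6 tRF5s rose, 3 tRF3s fell, a smaller share than of all tRF3s, and none of the other fragments passed. Without CC replicate 2, 1 tRF5 rose, and without CC replicate 1, 4 rose and 8 tRF3s fell. The tRF5s of this list that did not pass were those of the 3 proline tRNAs and of Ile-AAT, all under 6 RPM in each of the 4 libraries.

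The mix of tRNA families also differed between the groups. Of 23 families, 3 (13%) had a higher share in both Ang OE libraries than in both CC libraries, 15 (65.2%) a lower one and 5 overlapped, all as parts of the same total. tRNA-Gly made up 20.6% and 16.1% of tRNA reads in CC and 35.9% and 32.5% in Ang OE. tRNA-Val made up 6.31% and 4.76% in CC and 18.7% and 22.4% in Ang OE. tRNA-Ala went from 9.51% and 13.1% to 1.9% and 2.3%, and tRNA-Glu from 13.5% and 8.79% to 4.65% and 4.74%. The groups did not overlap for any of these 4 families. Shares of tRNA-Lys, between 14.8% and 20.2% in the 4 libraries, overlapped. tRNA-Arg was at 7.63% and 13.9% in CC and 6.98% and 6.69% in Ang OE, and tRNA-His at 3.01% and 2.03% against 3.19% and 4.17%. The smaller families Asp, Gln, Leu, Phe, Pro and Ser, each at least 2% in 1 or more of the 4 libraries, all had lower shares in both Ang OE libraries.

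miRNAs are short RNAs cut from hairpin precursors that bind mRNAs through their seed, bases 2 to 8. They made up 59.2% and 59.1% of annotated reads in CC and 66% and 62.9% in Ang OE. Of 848 hairpins with a read, 507 were tested, with both arms counted together. Of these, 209, or 41.2%, passed an adjusted p under 0.05 in edgeR with TMM library sizes, 137 of them higher in Ang OE, or 27%, and 72 lower, or 14.2%. With library sizes from rRNA-free reads alone the split was 117 higher and 101 lower, and the median log2 fold change over all hairpins moved from 0.08 to -0.08. Without CC replicate 1, Ang OE replicate 1 or Ang OE replicate 2, 137, 136 and 138 hairpins passed.

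Mature sequences are shown for the 6 largest rises outside the repeat families and the 4 largest falls, among called hairpins with a mean of at least 100 reads, with the seed in capitals. Both arms are given where listed, since the counts do not tell them apart. The first lines are hairpins higher in Ang OE and the last are lower.
miR-190a-5p: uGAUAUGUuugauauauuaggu
miR-190a-3p: aCUAUAUAucaagcauauuccu
miR-101a-5p: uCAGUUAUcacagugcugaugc
miR-101a-3p: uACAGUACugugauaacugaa
miR-7a-5p: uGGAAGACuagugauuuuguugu
miR-7a-2-3p: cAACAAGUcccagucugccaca
miR-215-5p: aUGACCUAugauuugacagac
miR-215-3p: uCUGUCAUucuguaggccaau
miR-210-5p: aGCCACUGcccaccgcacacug
miR-210-3p: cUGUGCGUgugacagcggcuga
miR-450b-5p: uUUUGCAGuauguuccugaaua
miR-450b-3p: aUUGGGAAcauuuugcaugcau
miR-760-5p: cCCCUCAGgccaccagagcccgg
miR-760-3p: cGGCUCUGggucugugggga
miR-5122: cCGCGGGAcccggggcugug
miR-149-5p: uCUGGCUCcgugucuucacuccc
miR-149-3p: gAGGGAGGgacgggggcggugc
miR-132-5p: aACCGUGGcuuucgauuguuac
miR-132-3p: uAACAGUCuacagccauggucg

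These sequences are RefSeq's, on GRCm38.p6. Among hairpins with that mean, the largest rise was that of mir-190a (chr9:67236664-67236721 from arm to arm, minus strand), at 4.22 and 4.8 TMM-scaled RPM in CC and 18.6 and 20.9 in Ang OE, a log2 fold change of 2.13 ± 0.16 (adjusted p = 3e-08). mir-101a was at 17.7 and 23.8 in CC and 71.3 and 88.9 in Ang OE, a log2 fold change of 1.95 ± 0.16. mir-7a-2 was at 17.9 and 20.5 against 66.1 and 65.5, a log2 fold change of 1.78 ± 0.14. For all 3 the gap between groups was far larger than that between replicates. mir-210, the miRNA best known for its induction under low oxygen, was at 69.5 and 78.7 against 207 and 233, a log2 fold change of 1.57 ± 0.13. mir-215 and mir-450b also rose, with log2 fold changes of 1.73 and 1.51, and mir-466n, mir-669b, mir-669m-1 and mir-669m-2 of a repeated family completed the 10, all under 8 TMM-scaled RPM.

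Larger changes were called for hairpins with fewer reads, which are not named here. With the same mean, the largest fall was that of mir-760, from 4.71 and 5.15 to 1.03 and 1.44 TMM-scaled RPM, a log2 fold change of -2.0 ± 0.21. mir-5122 fell from 7.03 and 6.87 to 1.35 and 2.44, a log2 fold change of -1.88 ± 0.22. mir-149 fell from 178 and 184 to 53.9 and 71.1, a log2 fold change of -1.54 ± 0.14. mir-132, an activity-dependent miRNA of neurons and other cells, fell by 1.37 on the log2 scale. mir-6516, mir-6539, mir-15b, mir-345, mir-1249 and mir-296 followed, with log2 fold changes from -1.22 to -1.14. All 20 of these rises and falls passed under every alternative run.

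Of the 5 most abundant hairpins, 3 rose. mir-21a, which is raised in many growing and stressed cells, was at 35144 and 39704 TMM-scaled RPM in CC and 68958 and 79999 in Ang OE, a log2 fold change of 0.99 ± 0.12. mir-143, a miRNA of mesenchymal cells, was at 27364 and 40468 against 60599 and 88419, a log2 fold change of 1.14 ± 0.17. In both groups mir-143 was higher in replicate 2. mir-10a rose by a log2 fold change of 0.33, which passed in 6 of 15 fits. mir-10b and mir-99b had log2 fold changes of 0.18 and -0.28 and did not pass.

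miRNA families were not uniform. Their counts stand beside 27% higher and 14.2% lower over all tested hairpins, with a median log2 fold change of 0.08. Of 14 let-7 hairpins, which hold back growth and are raised as cells mature, 8 rose and 6 did not pass, with a median log2 fold change of 0.51. Among those that rose, let-7f-1 and let-7f-2 had near-equal reads, with log2 fold changes of 1.35 and 1.36. So had let-7a-1 and let-7a-2, at 0.52 and 0.51, and the members of such a pair are not independent. let-7f-1 went from 1500 and 1806 to 4115 and 4318 TMM-scaled RPM and let-7i from 2542 and 3148 to 5365 and 6443, while let-7b had a log2 fold change of -0.19 and did not pass. Of 5 tested hairpins of the mir-34 and mir-449 family, which is known as a target of p53 and for its role in the testis, 4 rose, with a median of 0.93. Whichever library was left out, not all 4 kept the call. Of 7 hairpins of the cluster of mir-322, mir-503 and mir-450 on the X chromosome, 5 rose, with a median of 1.06. Those that did not pass were mir-503 and mir-351. Of 4 mir-29 hairpins, which target collagens, 3 rose, but none passed without CC replicate 1 or without Ang OE replicate 2. Without Ang OE replicate 1, 5 let-7 hairpins rose.

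The seed of the mir-34 and mir-449 family is shared by 3 of the arms found.
miR-34a-5p: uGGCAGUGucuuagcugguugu
miR-34b-5p: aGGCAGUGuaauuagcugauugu
miR-449a-5p: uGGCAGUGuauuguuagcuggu
mir-34a, mir-34b and mir-449a rose by log2 fold changes of 1.26, 0.40 and 0.93. mir-34c, the most abundant of the family, rose from 467.1 and 528 to 1273 and 1268 TMM-scaled RPM, a log2 fold change of 1.35. Another seed was shared by hairpins that went opposite ways.
miR-15b-5p: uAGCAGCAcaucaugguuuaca
miR-322-5p: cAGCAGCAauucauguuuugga
mir-15b fell from 1377 and 1330 to 624 and 566 TMM-scaled RPM, a log2 fold change of -1.19 ± 0.11, and mir-322 rose from 323 and 324 to 487 and 452, a log2 fold change of 0.54. Over the mir-15 and mir-16 family, 1 of 6 rose, mir-15a at 0.64, and 2 fell.

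In the mir-17-92 and paralog clusters, which promote proliferation, 2 of 12 rose, mir-19a at 1.28 and mir-20a at 0.77, and 2 fell, mir-92a-1 at -0.75 and mir-92a-2 at -0.64. Of the 8 hairpins of the mir-10, mir-99/100 and mir-125 families, 4 fell, led by mir-125b-2 at -0.95, and 1 rose. Without Ang OE replicate 2, 1 of these fell, and with any 1 library left out none rose. mir-27b rose by a log2 fold change of 0.85 while mir-23b, of the same cluster, fell by 0.45 on the log2 scale. Of 6 mir-30 hairpins, 2 rose, mir-30e at 1.00 and mir-30a at 0.65, a share near that of all hairpins. Of 6 mir-181 hairpins 2 fell, mir-181a-1 and mir-181a-2, whose mature arms share reads. mir-222 fell and mir-221 did not pass. In the cluster of mir-183, mir-96 and mir-182, mir-96 rose by 1.13 and mir-183 fell by 0.36, a call lost without CC replicate 2 or either Ang OE library. Of 6 tested hairpins of the Dlk1-Dio3 cluster 2 rose at levels under 3 TMM-scaled RPM, and none without CC replicate 1 or either Ang OE library. The mir-297, mir-466, mir-467 and mir-669 families, tandem repeats whose near-identical hairpins share reads, gave 44 rises and no fall among 73, with a median of 0.58 beside 0.08 over all hairpins. Without Ang OE replicate 1, 16 of them rose, without Ang OE replicate 2, 29, and without CC replicate 1, 30.

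The composition of the mature sequences moved with the fold change. For 401 of 434 tested hairpins outside the repeat families, or 92.4%, mature arms were found in RefSeq. The median share of G and C was 44.2% in the 92 hairpins called higher, 56.8% in the 65 called lower and 52.4% in those not called. Under 40% G and C, 26 of 46 hairpins rose and 3 fell. Over 55%, 5 of 135 rose and 36 fell. Spearman's rho across hairpins was -0.49 between the share of G and C and the log2 fold change of Ang OE over CC. The same rho was -0.20 for the log2 ratio of CC replicate 2 to CC replicate 1 and 0.05 for Ang OE replicate 2 to replicate 1. Hairpins share their libraries and are not replicates, so this is a description. mir-210, at 65.9% G and C, rose and mir-15b, at 38.6%, fell. The part of base composition in the miRNA results was not tested.

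**Figure D5:**
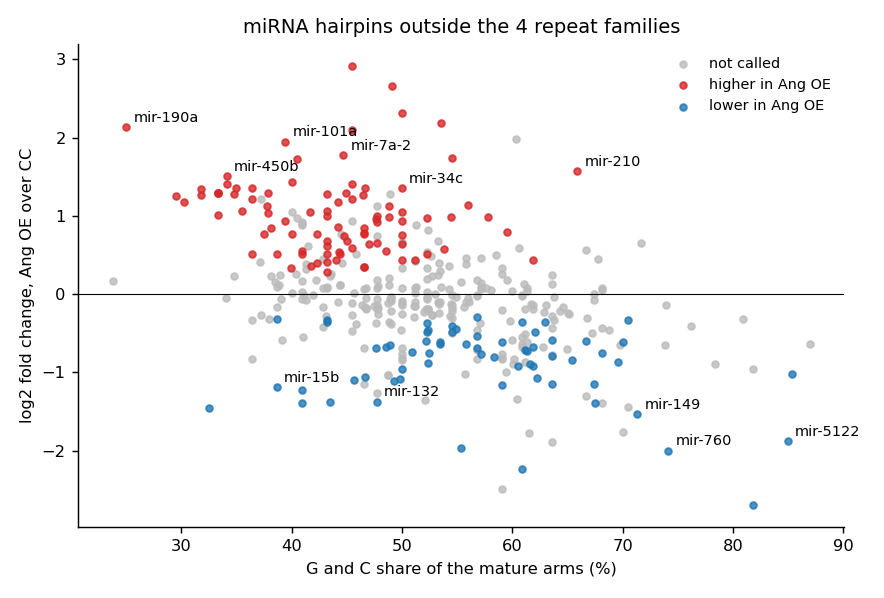
Log2 fold change of 401 miRNA hairpins, Ang OE over CC, against the G and C share of their mature arms in percent, red where higher and blue where lower at an adjusted p under 0.05. Hairpins under 40% G and C lie mostly above 0, with mir-190a at 2.13, and those over 55% mostly below, with mir-760 and mir-5122 at -2.0 and -1.88, while mir-210 stands apart at 1.57.

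Reads of other RNAs fell more often than they rose. Of 107 classes with a read, 102 were tested. Of these (rRNAs, mitochondrial tRNA fragments, Y RNAs, piRNAs, precursor tRNAs and Ensembl and Rfam types), 18, or 17.6%, passed, 1 higher, or 0.98%, and 17 lower, or 16.7%. Fragments of 18S rRNA went from 5229 and 5414 RPM in CC to 1402 and 1706 RPM in Ang OE, a log2 fold change of -1.78 ± 0.17 (adjusted p = 0.0071). Ctrl lay between, at 2546 and 2680 RPM. 4.5S rRNA fragments fell by 1.42 on the log2 scale. 5S and 5.8S rRNA fragments fell by 0.62 and 0.39 on the log2 scale, and 28S rRNA overlapped. rRNA reads were 8.58% and 7.48% of clean reads in CC and 5.92% and 6.35% in Ang OE.

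Reads of snoRNAs, which guide rRNA modification, went from 29232 and 28024 RPM to 19229 and 21387 RPM, a fall of 0.50 on the log2 scale. Reads matched to Ensembl lincRNAs were at 4851 and 10724 RPM in CC and 2396 and 2420 RPM in Ang OE, with the CC libraries far apart. Matches to piRNA sequences, small RNAs best known from germ cells, were at 222361 and 234249 RPM in CC and 193498 and 200382 RPM in Ang OE and did not pass (adjusted p = 0.092). These calls were not stable. With TMM the median of all classes moved from -0.44 to 0.10 and 14 were higher and 8 lower, with 28S and 5.8S rRNA, snoRNAs and piRNAs turning to log2 fold changes of 0.17, 0.13, 0.02 and 0.29. Without Ang OE replicate 1 or Ang OE replicate 2 none passed in edgeR, with 20 and 24 classes at an unadjusted p under 0.05. Without CC replicate 1, 9 were higher and 20 lower, and without CC replicate 2, 1 was higher and 39 were lower.

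miRNAs known as markers of other cell types ranged from near 0 to abundant. Summed levels of 6 epithelial miRNAs were between 1.35 and 2.02 RPM in the 4 libraries, of 4 white blood cell miRNAs between 1.45 and 1.82 RPM and of 5 muscle miRNAs between 1.47 and 3.1 RPM, and none of the 6 tested members of these lists passed. The 4 red blood cell miRNAs summed to between 1090 and 1164 RPM, without a call among 3 tested. The 6 mesenchymal miRNAs summed to 39479 and 52500 RPM in CC and 72960 and 89993 RPM in Ang OE, and 4 rose, of which 1 to 2 passed without CC replicate 1 or either Ang OE library. Of 10 germ cell miRNAs, 4 were tested and 3 rose, all of them members of the mir-34 and mir-449 family. Whichever library was left out, not all 3 kept the call. Over all tested hairpins 27% were called higher, the share to set beside the mesenchymal and germ cell lists. The germ cell list summed to 550 and 595 RPM in CC and 1335 and 1195 RPM in Ang OE, while mir-880, mir-883a and mir-883b were at 0 in all 4 libraries. mir-142b, a white blood cell marker, was at 0 as well. In bulk RNA, fewer cells of a type and less RNA per cell cannot be told apart, and the part of these markers in the results was not tested.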

How the data were processed

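Small RNA libraries of TM4 cells were made with the TruSeq Small RNA kit. The authors trimmed reads with Trimmomatic 0.40 after FastQC 0.12.0 and annotated reads of 15 to 45 nt with SPORTS1.1, 1 mismatch allowed, against rRNA, tRNA, mitochondrial tRNA, miRNA, Ensembl, Rfam and piRNA sequences in that order, so that a read taken by an earlier class cannot count in a later one, and a read that matches several entries is divided among them; the labels name mm10. The deposited tables hold estimated counts that need not be whole, with no lengths or positions of reads. Genome-matched and unmatched reads were summed here and rounded for tests. Each library's table was read on its own. A tRNA's reads were split into tRF5, tRF3 (with CCA ends) and other, the total minus both. rRNA was left out of library sizes. For the cell lines the authors also adjusted for technical batches of sample preparation with ComBat-seq, and the batches are not given in the sources used here. The members and lists were chosen with earlier results of these data known.

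edgeR 4.0.16 (R 4.3.3) was fitted to the 4 libraries without Ctrl, with features of at least 10 reads in at least 2 libraries, giving 2 residual degrees of freedom. A tRF was called where its adjusted p was below 0.05 and its fold above 2, and other features by the adjusted p alone. miRNAs were scaled by TMM. DESeq2 1.42.0, ComBat-seq (sva 3.50.0), a model of all 6 TM4 libraries, other scalings, filters and left-out libraries were alternatives. Ctrl entered that model and the ComBat-seq adjustment. Named were the 10 called tRFs and miRNAs with the largest change each way (6 for other RNAs), a mean of at least 100 reads and groups that did not overlap, the most abundant (6 tRFs, 5 miRNAs, 8 other RNAs), mir-21a, mir-210, list members and tRNA families of at least 2% of tRNA reads. On data simulated from these libraries with 4-fold changes, 29 of 30 changed tRFs, 166 of 169 miRNAs and 15 of 20 other RNAs were called, with 2, 6 and 0 false calls. Replicates of a group were no duplicates, with a chi-square over degrees of freedom of 99.8 or more. tRNA genes were searched for in GRCm39 by their fold, and miRNA sequences were RefSeq's.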

Additional observations from a re-analysis of the deposited data

How the results depend on the processing

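With 1 library left out, the lone library of a group was assumed to vary like the other group, with 1 residual degree of freedom. The number of tRFs called then ran from 10 (without CC replicate 2) to 65, of miRNAs from 136 to 165 and of other RNAs from 0 to 40, beside 55, 209 and 18. Differences of Ang OE minus CC, in percentage points, ran from 0.992 to 2.32 for the tRNA share, 3.77 to 6.87 for miRNAs, -3.85 to -2.37 for piRNAs, -2.45 to -1.34 for rRNA, 40.5 to 55.7 for tRF5s, -37.7 to -26.4 for tRF3s and -18 to -14.1 for other fragments. The ratio of summed RPM ran from 4.46 to 14.2 for tRF5s (Ang OE over CC) and from 2.24 to 3.46 for tRF3s (CC over Ang OE), an alternative chosen after seeing the data. Isoacceptors whose tRF5 share did not overlap numbered 41 to 45, beside 38, a count that leaving out a library can only keep or raise. Other RNA calls were 10 with all clean reads as library size, 8 with genome-matched reads alone and 37 after ComBat-seq by replicate number. Genome-matched reads alone also moved the difference to 2.52 points for tRNA, 2.90 for miRNA, -1.30 for piRNA, -21.3 for tRF3s and -26.8 for other fragments. With CCA ends counted as other, it was -0.070 for tRF3s and -48.1 for other fragments, since nearly all tRF3 reads end in CCA. Every difference of shares kept its sign, which leaving out 1 library could not change, because the groups did not overlap.

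The replicate number as a block left 55 tRFs called and gave 234 miRNAs and 24 other RNAs. The labels give only a number, so that the libraries were not treated as pairs, and the replicate differences of CC and Ang OE correlated at -0.26 in tRFs, 0.20 in miRNAs and 0.05 in other RNAs. The study describes technical batches in sample preparation without naming them, so batches and replicate numbers cannot be matched here. Crossed numbers, chosen after seeing the data, gave 55, 194 and 18. The model of all 6 TM4 libraries, Ctrl included, gave 55, 218 and 22. Of the log2 fold changes of 62 named RNAs under their alternatives, 826 of 944 kept direction and call, 78 lost and 16 gained the call, and 24 turned. With TMM, log2 fold changes turned for 28S rRNA (0.17), 5.8S rRNA (0.13), processed transcripts (0.51), snoRNAs (0.019) and piRNAs (0.29), and with DESeq2's size factors for 28S (0.073), 5.8S (0.024), processed transcripts (0.41) and piRNAs (0.19). With all clean reads processed transcripts were at 0.011. With genome-matched reads alone 45S rRNA (-0.68), Rfam rRNA (0.24) and tRF3 Asp-GTC (0.18) turned, and tRF3 Asp-GTC also with CCA ends as other or as a class of their own (0.24 for both). With 1 library left out the sign also turned, for RNAs that were not called, over ranges of -0.71 to 0.045 for 28S rRNA, -0.25 to 0.31 for 45S rRNA, -0.17 to 0.15 for processed transcripts, -0.29 to 0.68 for other Arg-CCT and -0.076 to 0.25 for other Lys-TTT. The cause of these changes was not tested.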

Other observations

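The sum of mitochondrial tRF3s was lower in both Ang OE libraries than in both CC libraries, with a log2 ratio of means of -0.44, beside -1.44 for cytosolic tRF3s. Most of that sum was tRF3 Val-TAC, which did not pass, at a log2 fold change of -0.42 (edgeR adjusted p = 0.26). Of 21 mitochondrial tRF3s and 22 mitochondrial fragments with neither end, 4 each were called lower in edgeR and none higher. Over all other RNA classes tested, 16.7% were called lower. Mitochondrial tRF5s summed to 502 and 295 RPM in CC and 374 and 445 RPM in Ang OE, so the sums overlapped, and those of Met-CAT and Ser-GCT made up most of the reads. Of 18 mitochondrial tRF5s tested, 15 had a log2 fold change above 0, 1 was called higher in edgeR and none lower. Over all 102 other RNA classes, 26 were above 0 and 0.98% were called higher. These signs depend on scaling, since TMM moved the median of all classes from -0.44 to 0.10. Mitochondrial tRF3s summed to 3335 and 2115 RPM in CC and 1983 and 2020 RPM in Ang OE, and mitochondrial fragments with neither end to 528 and 299 RPM against 191 and 194 RPM. Those of Lys-TTT were at 39.4 and 14.7 RPM in CC and 3.51 and 2.44 RPM in Ang OE, a log2 fold change of -3.18 (edgeR adjusted p = 0.04), those of Asn-GTT had a log2 fold change of -2.45 and those of Trp-TCA of -1.67. The 1 class called higher among other RNAs was mitochondrial tRF5 Lys-TTT, at 0.367 and 0.357 RPM in CC and 0.949 and 1.36 RPM in Ang OE, named after its values were seen. Y RNA reads were between 0.062% and 0.094% of annotated reads in the 4 libraries and overlapped.

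In the cytosolic tRFs, the difference between replicates 1 and 2 ran alike in CC and Ctrl, with Pearson's r of 0.76 across 142 tRFs, and not in CC and Ang OE, with r of -0.26. The tRFs share their libraries, and the sources used here do not say whether CC and Ctrl replicates of the same number were prepared together.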
